A study of Mus musculus with 4 samples.

Results

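B cells in mice carry either a kappa or a lambda light chain on their antibody, and the lambda cells among cultured splenic B cells are described here. A cell was taken as lambda when the summed unique molecular identifiers (UMIs, 1 per captured transcript) of the lambda constant genes Iglc1, Iglc2 and Iglc3 reached 10 and exceeded those of Igkc, the kappa constant gene. A kappa cell met the mirrored rule, with Igkc of 10 or more UMIs and above the lambda sum. Members were thus selected on their Iglc and Igkc counts, which are described but not tested. Cells were kept when 1000 or more genes were detected and mitochondrial transcripts made up less than 10% of UMIs. Of these 18534 cells, 2016 were lambda cells (the members), 12117 were kappa cells and 4401 were unassigned.

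The cells came from wild-type mouse spleens by negative selection and were cultured as 2 groups of 2 samples each. Bregs-CpG were B cells kept for 3 days with the CpG B oligonucleotide ODN 1668, a ligand of TLR9. Bregs-TLR had the same culture, and for its final 5 hours also received LPS, PMA and ionomycin, so all 4 samples share the CpG exposure. Single-cell 3′ RNA libraries were made from each sample, and the deposited matrix holds 4 libraries, known by the barcode endings 5, 6, 7 and 8. No label ties a library to a sample, so the matrix was treated as 1 pooled sample. No test was run, since the libraries could not be counted as replicates of a labelled sample and the comparison of lambda with kappa cells rests on the values that chose them. Values are given for each library and for the pairs 5+6 and 7+8, within which lambda and kappa cells were compared. Intervals are 95% intervals and cover counting error only, not the spread between cultures. The pairs differ strongly from each other in depth and light chain level, and no comparison between Bregs-CpG and Bregs-TLR was made.

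During B cell development in the mouse the kappa locus on chromosome 6 usually rearranges first, and the lambda locus on chromosome 16 is used mainly when no functional kappa chain results. Lambda cells are therefore a small minority of mouse B cells. The mouse lambda locus is short: Iglv1 joins the neighbouring Iglc3 and Iglc1 clusters, whereas Iglv2 and Iglv3 lie upstream of Iglc2 and join mostly to it.

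The 3 constant genes that define the members are printed here because their likeness limits what counts can separate. In GRCm38 the exon of the transcript used lies at chr16:19061618-19062071 for Iglc1, chr16:19065230-19065681 for Iglc3 and chr16:19198396-19198853 for Iglc2, each on the minus strand. The Iglc2 gene as a whole is annotated over a longer stretch, chr16:19198396-19200351. A stretch of 120 bases near the start of each coding exon, from the same aligned position (coding base 3 of Iglc1 and Iglc3 and 4 of Iglc2), is printed 5′ to 3′ from GENCODE transcripts, with bases that differ from Iglc2 in capitals.
Iglc1: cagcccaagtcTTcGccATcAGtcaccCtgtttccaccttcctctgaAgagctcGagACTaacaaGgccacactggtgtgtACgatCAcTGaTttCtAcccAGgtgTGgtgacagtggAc
Iglc2: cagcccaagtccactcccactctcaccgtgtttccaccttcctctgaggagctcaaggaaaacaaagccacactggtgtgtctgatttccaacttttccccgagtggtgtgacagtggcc
Iglc3: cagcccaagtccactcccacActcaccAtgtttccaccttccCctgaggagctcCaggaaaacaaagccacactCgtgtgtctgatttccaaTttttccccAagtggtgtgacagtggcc
Iglc1 differed from Iglc2 at 28 of these positions and Iglc3 at 7. Over the whole coding part Iglc2 and Iglc3 were 96.2% identical, and Iglc1 was 73.3% identical to Iglc2 and 74.1% to Iglc3. After the coding part, identity was 89.3% between Iglc2 and Iglc3 and 51.8% between Iglc1 and Iglc2, and where the 3′ reads lie was not measured. Reads of Iglc2 and Iglc3 can thus be hard to tell apart, and the split between these 2 genes is uncertain, while Iglc1 is distinct. The transcripts of Iglv1 and Iglv2 differed at only 10 aligned bases, so their split is also uncertain.

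Library 5 gave 629 members among 4196 cells, library 6 gave 786 among 4714, library 7 gave 347 among 5621 and library 8 gave 254 among 4003. These cells carried 44842982, 51636750, 63638158 and 45672518 UMIs in libraries 5, 6, 7 and 8. Median UMIs per member were 7953, 8315.5, 10678 and 10021.5 in that order, against 8870, 8892, 11362 and 11210 in kappa cells, so members were the shallower cells in each library. Of the cells with an assigned light chain, members made up 15.99% in libraries 5+6 (95% Clopper-Pearson interval 15.2 to 16.8) and 11.4% in libraries 7+8 (10.5 to 12.3). The denominators differ, since 0.673% of cells in 5+6 and 45.1% of cells in 7+8 stayed unassigned. Of all passing cells the share was 15.9% and 6.24%. No doublet caller was run. Cells with at least 10 UMIs of both chains numbered 8418 of 8910 in 5+6 and 745 of 9624 in 7+8. Among all barcodes, 29 sequences occurred in more than 1 library, covering 58 barcodes.

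The median lambda sum was 87, 91, 26 and 23 UMIs per member in libraries 5, 6, 7 and 8, and the highest member held 6812 UMIs. Kappa cells held a median of 33 lambda UMIs in libraries 5 and 6 and 2 in libraries 7 and 8. Igkc was the mirror of this, with medians of 25, 27, 4 and 3 UMIs in members and 80, 81, 24 and 24 in kappa cells. These values chose the cells and carry no test. At the edge of the rule in 5+6, 141 cells had a lambda sum within 1.1 times Igkc (medians 42 and 40 UMIs) and were members, while 168 cells with the reverse balance (medians 42 and 45 UMIs) were not. In 7+8 the minimum mattered more: 106 members had a lambda sum of 10 to 12 UMIs (median 11, Igkc 4.5), and 173 cells with 7 to 9 (median 8, Igkc 3) fell outside.

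Since lambda UMIs were present in most kappa cells of 5+6, members were divided by their ratio, a choice made after the data had been seen. High-ratio members had at least 10 times as many lambda as Igkc UMIs, low-ratio members less than 2 times, and mid-ratio members lay between. High-ratio members numbered 199, 237, 170 and 129 in libraries 5, 6, 7 and 8, and low-ratio members 304, 375, 76 and 62. High-ratio members were 30.8% of members in 5+6 (28.4 to 33.3) and 49.8% in 7+8 (45.7 to 53.8). Low-ratio members were 48.0% and 23.0%. As a share of assigned cells, high-ratio members came to 4.78%, 5.05%, 5.49% and 5.90% in libraries 5, 6, 7 and 8. The pair intervals of this share, 4.48 to 5.40 and 5.05 to 6.32, overlap, while those of the member share do not. Of all passing cells, high-ratio members were 4.89% in 5+6 (4.45 to 5.36) and 3.11% in 7+8 (2.77 to 3.47). With that denominator the order of the pairs turned and the intervals do not overlap.

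**Figure D1:**
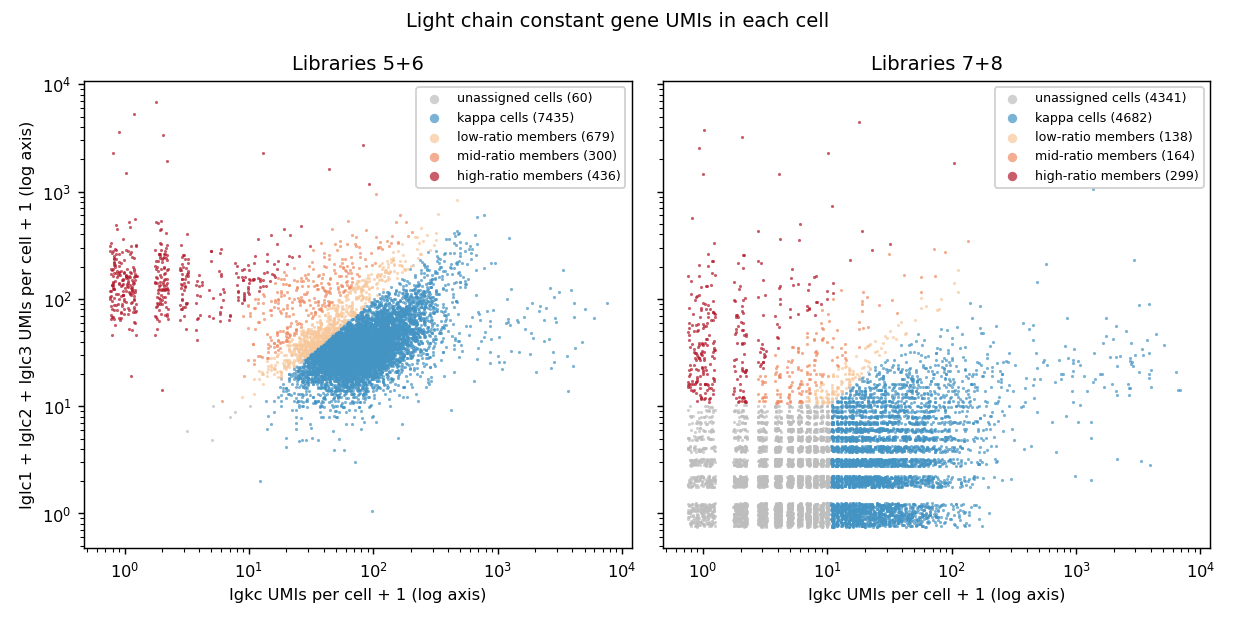
Igkc UMIs (x axis) and summed Iglc1, Iglc2 and Iglc3 UMIs (y axis) of each cell, both plus 1 and jittered by at most 0.25, on log axes for libraries 5+6 and 7+8. High-ratio members form a column at Igkc near 0, whereas low-ratio members border the kappa cells, and in 5+6 that border runs through a dense cloud.

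The label was set beside the variable genes, which the rule did not use. A variable and a constant gene are parts of the same light chain transcript, so these values are not independent of the rule. Iglv1, the most used lambda variable gene, stood at 80.9, 110, 36.9 and 64.4 CPM (UMIs scaled to 1e+06 per class) in high-ratio members of libraries 5, 6, 7 and 8. In kappa cells of the same libraries it stood at 5.10, 6.67, 9.04 and 2.29 CPM. Every high-ratio value lay above every kappa value. Low-ratio members held 9.89, 13.8, 4.004 and 10.1 CPM, which is above the kappa cells of libraries 5, 6 and 8 and below those of library 7. Iglv1 was seen in 162 of 436 high-ratio members of 5+6 (37.2%), 69 of 679 low-ratio members (10.2%) and 299 of 7435 kappa cells (4.02%). In 7+8 the shares were 18.1%, 7.25% and 2.24%. Median UMIs per cell were 7808, 8307 and 8885 in the high-ratio, low-ratio and kappa cells of 5+6, and 10283, 10462.5 and 11296.5 in those of 7+8. With each cell thinned to 5000 UMIs, the shares of cells with Iglv1 were 24.4%, 4.90% and 1.86% in 5+6 and 11.3%, 2.94% and 1.35% in 7+8. The order held at equal depth, although the intervals of low-ratio members (0.807 to 7.36) and kappa cells (1.04 to 1.73) overlap in 7+8.

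The other lambda variable genes were also highest in high-ratio members. Iglv2 stood at 9.72, 1.82 and 0.146 CPM in high-ratio members, low-ratio members and kappa cells of 5+6, and at 11.1, 0 and 0.0663 CPM in 7+8. Iglv3 stood at 14.2, 2.39 and 1.07 CPM in 5+6, and at 4.003, 0.529 and 0.381 CPM in 7+8. In 7+8 the low-ratio members held 0 UMIs of Iglv2 and 1 of Iglv3, too few to place them apart from kappa cells. The kappa variable genes ran the opposite way. Summed over all Igkv genes, high-ratio members held 6.11 CPM, low-ratio members 23.1 CPM and kappa cells 54.3 CPM in 5+6 (intervals 3.83 to 9.25, 19.8 to 27.0 and 52.8 to 56.0). In 7+8 these were 3.08, 5.82 and 20.4 CPM. For Iglv1 and the Igkv sum, the pair values of low-ratio members lay between those of high-ratio members and kappa cells, with the exception of Iglv1 in library 7 given above. On these genes, which are not independent of the rule, the name lambda cell fits the high-ratio members. For low-ratio members the name rests mainly on the constant genes that chose them.

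**Figure D2:**
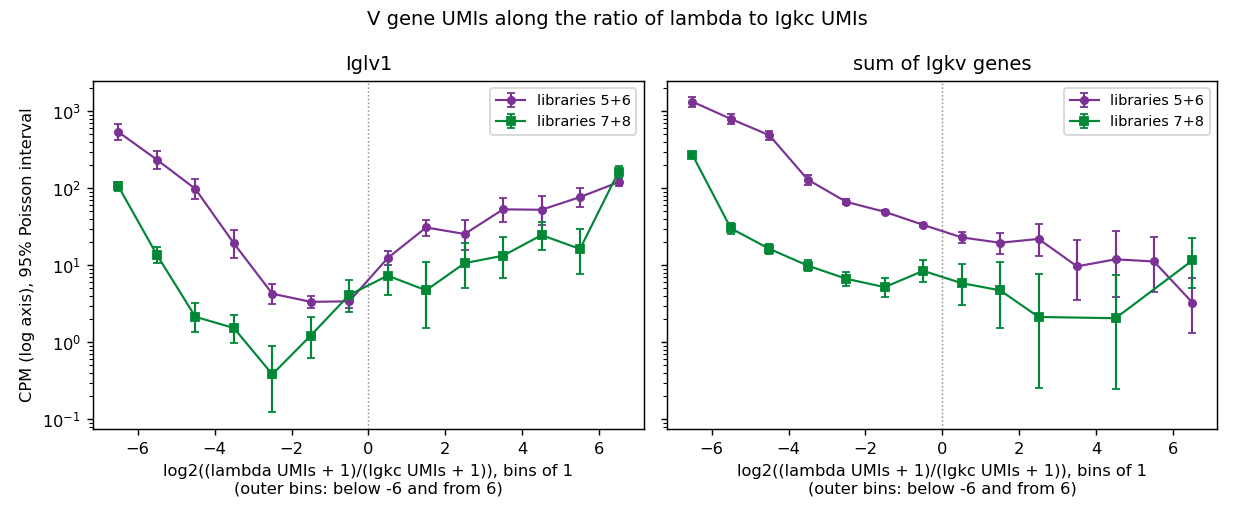
Level of Iglv1 (left) and of all Igkv genes summed (right) in CPM on a log axis, with 95% Poisson intervals, for cells binned by the log2 ratio of lambda to Igkc UMIs; bins with no UMI are not drawn. Iglv1 climbs to the right of 0 in both pairs and reaches 120 CPM (5+6) and 164 CPM (7+8) in the highest bin, and it is also high at the far left. Both ends hold cells with many Jchain UMIs, at 491 and 796 CPM of Jchain in the highest bins of 5+6 and 7+8.

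The far left of that plot held kappa cells with large amounts of antibody transcript. In kappa cells with at least 10 UMIs of Jchain, which encodes the joining chain of secreted antibody, Iglv1 reached 247 CPM in 5+6 (48 cells, 62.5% with Iglv1) and 285 CPM in 7+8 (69 cells, 73.9%). The other kappa cells held 3.79 and 1.23 CPM. Members with at least 10 Jchain UMIs held 922 CPM in 5+6 (10 cells, 90% with Iglv1) and 849 CPM in 7+8 (8 cells, 100%). Jchain-rich cells weighed on the lambda side as well, since without the 10 and 8 such members, all of them high-ratio, the Iglv1 level of high-ratio members was 63.8 CPM in place of 96.9 in 5+6 and 21.02 CPM in place of 48.3 in 7+8. By library it was then 63.6, 64.02, 21.6 and 20.2 CPM in libraries 5, 6, 7 and 8, still above the other kappa cells of each library (4.19, 3.43, 1.66 and 0.642 CPM). In library 7, where all kappa cells together lay above the low-ratio members, the other kappa cells held 1.66 CPM, below the 4.004 CPM of low-ratio members. By pair, low-ratio members held 12.2 CPM in 5+6 (9.78 to 15.1) and 6.87 CPM in 7+8 (3.66 to 11.8). Both intervals lay above those of the other kappa cells (3.38 to 4.24 and 0.965 to 1.55). Low-ratio members thus also carried more Iglv1 than these kappa cells at full depth, at a level below high-ratio members. The cause of Iglv1 UMIs in Jchain-rich kappa cells was not tested.

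Markers of other cell types were near 0 in members. Of the T cell genes, Cd3e and Cd3g had no UMI in any member and Trac reached 0.428 CPM in 5+6 and 0.415 CPM in 7+8. The 5 myeloid genes, Lyz2 among them, and the 3 NK cell genes had no UMI in members. Of the erythroid genes, Hbb-bs was at 0 in members of 5+6 and at 0.969 CPM in those of 7+8. The B cell receptor subunit Cd79a stood at 3163 CPM in members and 3163 CPM in kappa cells of 5+6, and at 1192 and 1267 CPM in 7+8. Its partner Cd79b stood at 2268 and 2181.7 CPM in 5+6, and at 408 and 319 CPM in 7+8. Cd79a was seen in all members of 5+6 and 99.3% of those of 7+8, and in 100% and 98.9% of kappa cells. Cd79b was seen in 99.9% and 89.0% of members and in 99.9% and 83.4% of kappa cells.

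Iglc1 carried most lambda UMIs in members with a clear lambda identity. In high-ratio members Iglc1, Iglc2 and Iglc3 took 65.5%, 26.4% and 8.11% of lambda UMIs in 5+6, and 65.4%, 28.9% and 5.64% in 7+8. In low-ratio members Iglc1 took 51.3% and 44.8%, and in kappa cells 35.4% and 30.0%. Iglc2 took the place of Iglc1 there, at 51.7% of the lambda UMIs of kappa cells in 5+6 and 57.7% in 7+8. Unassigned cells of 7+8 had an Iglc1 share of 16.9%. Without Jchain-rich cells, Iglc1 in 7+8 took 82.1% of the lambda UMIs of high-ratio members and 17.6% of those of kappa cells, and in 5+6 it took 70.8% and 35.3%.

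**Figure D3:**
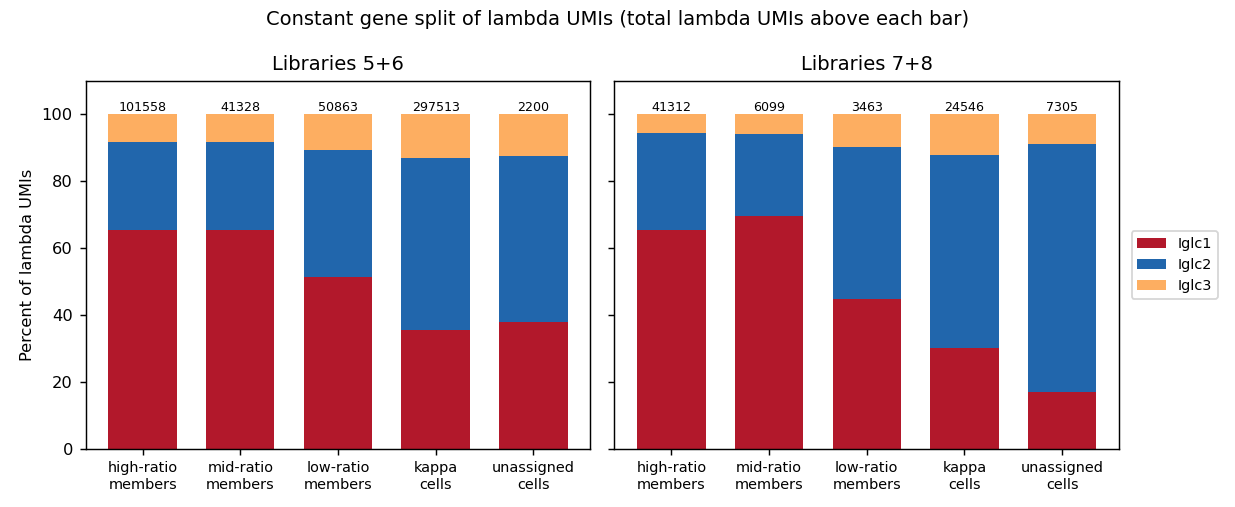
Share of lambda constant UMIs from Iglc1, Iglc2 and Iglc3 (stacked to 100%) in high-, mid- and low-ratio members, kappa cells and unassigned cells, with the UMI total above each bar. The Iglc1 share falls from 65.5% in high-ratio members to 35.4% in kappa cells of 5+6 and from 65.4% to 30.0% in 7+8, with all cells included.

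Cell by cell, most high-ratio members were dominated by Iglc1. Iglc1 was the highest of the 3 genes in 73.9%, 76.4%, 70.6% and 75.2% of high-ratio members in libraries 5, 6, 7 and 8. Iglc2 was highest in 23.1%, 16.5%, 23.5% and 23.3%, and Iglc3 in 2.01%, 6.75%, 5.29% and 1.55%. For each gene the intervals of the 4 libraries overlap. Over all members Iglc1 led in 53.1% of cells in 5+6 (50.4 to 55.7) and 57.7% in 7+8 (53.7 to 61.7). In low-ratio members Iglc2 led instead, in 58.3% and 68.1% of cells, as it did in 76.2% and 59.1% of kappa cells.

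The variable gene went with the constant gene in high-ratio members, which the rule did not use. In the 545 high-ratio members led by Iglc1, 405 of the Iglv UMIs were Iglv1 (92.3%, 89.3 to 94.6), 8 were Iglv2 and 26 were Iglv3. The 31 cells led by Iglc3 had 48 Iglv1 UMIs (87.3%), 1 of Iglv2 and 6 of Iglv3, but 5 cells held 89.6% of the Iglv1 UMIs and library 8 had none. In the 155 cells led by Iglc2, 52 were Iglv1 (35.6%, 27.9 to 44.0), 62 were Iglv2 (42.5%) and 32 were Iglv3 (21.9%). The order of Iglv1 and Iglv2 in these cells was not the same in each library, with 19 and 15 UMIs in library 5, 9 and 14 in library 6, 8 and 27 in library 7, and 16 and 6 in library 8. The 27 Iglv2 UMIs of library 7 came from 3 cells. The intervals of the UMI shares above count each UMI as independent, although the 5 highest cells of a library held many of them. They held 37.3%, 45.5%, 43.8% and 77.5% of the Iglv1 UMIs of Iglc1-led cells in libraries 5, 6, 7 and 8. Of the Iglv1 UMIs of Iglc2-led cells they held 89.5%, 77.8%, 100% and 100%. Counted as cells with UMIs of 1 Iglv gene only, Iglc1-led cells split into 170 with Iglv1, 3 with Iglv2 and 6 with Iglv3. Iglc2-led cells split into 9, 17 and 10, and Iglc3-led cells into 8, 0 and 0. Left out of this count were cells with UMIs of 2 or more Iglv genes. They numbered 14 of 193 Iglc1-led, 12 of 48 Iglc2-led and 2 of 10 Iglc3-led cells with any Iglv gene. A lambda variable gene was seen in 193 of the 545 Iglc1-led cells, so most cells could not be placed by it at this depth.

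Iglc4, which is thought not to give a functional chain in mice, stood at 26.1 CPM in high-ratio members and 15.5 CPM in kappa cells of 5+6, far below the other constant genes. In 7+8 it stood at 1.23 and 0.431 CPM.

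Outside the immunoglobulin genes, few genes differed between members and kappa cells as the rule chose them. A gene was counted as different when its CPM ratio passed 1.5-fold in a pair and both libraries lay on that side of 0, among genes of at least 20 CPM. In 5+6, 1 of 4461 genes was higher in members (0.0224%), Jchain, and 1 was lower (0.0224%), the long noncoding RNA Gm30211. In 7+8, 2 of 4671 were higher (0.0428%), Mzb1 and Ly6k, and 3 were lower (0.0642%), Ccl4, Car2 and Serpinb9. Jchain had log2 ratios of 0.71 in 5+6 and 0.09 in 7+8, and Mzb1 0.16 and 0.71, the latter from 0.16 in library 7 and 1.304 in library 8. Single libraries changed these counts, to 16 genes with library 5 alone and 29 with library 8 alone. The median log2 ratio of all compared genes was -0.00 in 5+6 and 0.01 in 7+8.

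High-ratio members had more such genes than all members together. In 5+6, 15 of 4461 genes were higher than in kappa cells (0.336%) and 6 were lower (0.134%). In 7+8, 8 of 4669 were higher (0.171%) and 12 were lower (0.257%). Low-ratio members had 1 higher and 12 lower of 4457 genes in 5+6 (0.0224% and 0.269%). In 7+8, where the class held 138 cells, it had 31 higher and 58 lower of 4675 (0.663% and 1.24%). At full depth these were more genes than in all members or high-ratio members of 7+8, and mid-ratio members were not compared in this way. For high-ratio members, Jchain, Apoe and Txndc5 were higher in both pairs. The higher genes of 5+6 included Xbp1, Creld2, Hsp90b1, Manf, Sdf2l1, Pdia6, Derl3 and Dnajc3, which act in antibody-secreting cells or fold proteins in the endoplasmic reticulum.

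Jchain stood at 208, 483, 214 and 190 CPM in high-ratio members of libraries 5, 6, 7 and 8, against 33.3, 77.3, 117 and 44.0 CPM in kappa cells. High-ratio members were above kappa cells in each library, by log2 ratios of 2.65, 2.64, 0.88 and 2.11. The 10-fold limit of this class took in all 18 members with at least 10 Jchain UMIs, whose median lambda sum was 2302 UMIs. The gap is thus not independent of how the class was chosen, and over all members the ratios were smaller in both pairs, as given above. Few cells held most of the Jchain, since the 5 highest had 74.8% of the Jchain UMIs of high-ratio members in 5+6 and 88.4% in 7+8. Mzb1, a chaperone of antibody assembly, stood at 2034, 2187, 286 and 747 CPM against 1416, 1525, 205 and 180 CPM, with log2 ratios of 0.52, 0.52, 0.48 and 2.05. In library 8, the 5 highest cells held 73.6% of its UMIs. Txndc5, an endoplasmic reticulum disulfide isomerase, stood at 50.9, 97.5, 50.1 and 58.5 CPM against 31.2, 32.9, 36.9 and 29.2 CPM, above kappa cells in each library. Creld2, a stress-induced endoplasmic reticulum protein, stood at 72.3, 49.8, 62.7 and 65.9 CPM against 20.3, 26.0, 46.9 and 44.8 CPM, also above in each. Hsp90b1, an endoplasmic reticulum chaperone, had log2 ratios of 1.07, 0.61, 0.15 and 0.32, and Xbp1, a transcription factor of secretory cells, 0.70, 1.103, -0.22 and 0.28. The library 7 value of Xbp1 lay on the other side of 0.

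Of the plasma cell list, 4 of 5 genes compared were higher in high-ratio members of 5+6 and 3 of 5 in 7+8, with median log2 ratios of 1.25 and 0.67. Of the endoplasmic reticulum folding list, 5 of 14 were higher in 5+6 and 0 of 13 in 7+8, with medians of 0.52 and 0.10. Over all compared genes the medians were -0.01 and -0.01, and 0.336% and 0.171% were higher. The 10-fold limit was set on the lambda side only, and the kappa cells of this comparison had no such limit. With the same limit on both chains, the plasma cell median turned to -2.21 in 5+6 and stood at 0.46 in 7+8, and the folding median turned to -1.30 in 5+6 and stood at 0.10 in 7+8. The direction in 5+6 therefore depended on which kappa cells were used. In low-ratio members the medians of both lists lay below 0. The plasma cell list had 1 of 4 genes lower in 5+6 and 1 of 5 in 7+8, with medians of -0.35 and -0.33. The folding list had 0 of 14 and 1 of 13 lower, with medians of -0.16 and -0.30. Over all genes compared in that class, 0.269% and 1.24% were lower. No low-ratio member had 10 or more Jchain UMIs, while 48 kappa cells of 5+6 and 69 of 7+8 did. The low-ratio medians of these lists are thus not independent of the class limits, and they are not given here without those kappa cells.

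All 18 members with at least 10 Jchain UMIs were high-ratio members, 10 in 5+6 and 8 in 7+8, and 117 kappa cells reached the same level (48 and 69). With these cells left out, the genes counted as different for high-ratio members went from 21 to 7 in 5+6 and from 20 to 16 in 7+8. The folding list went from 5 higher genes to 0 in 5+6, and its median from 0.52 to 0.31, with 11 of 13 genes still above 0. In 7+8 its median went from 0.10 to -0.07. Creld2 went from 1.36 to 0.41 and Txndc5 from 1.25 to 0.27 in 5+6, and in 7+8 to -0.01 and -0.01. Mzb1 went from 1.296 to 0.36 in 7+8. Removing 58 and 77 cells of both chains therefore moved most of these ratios toward 0.

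**Figure D4:**
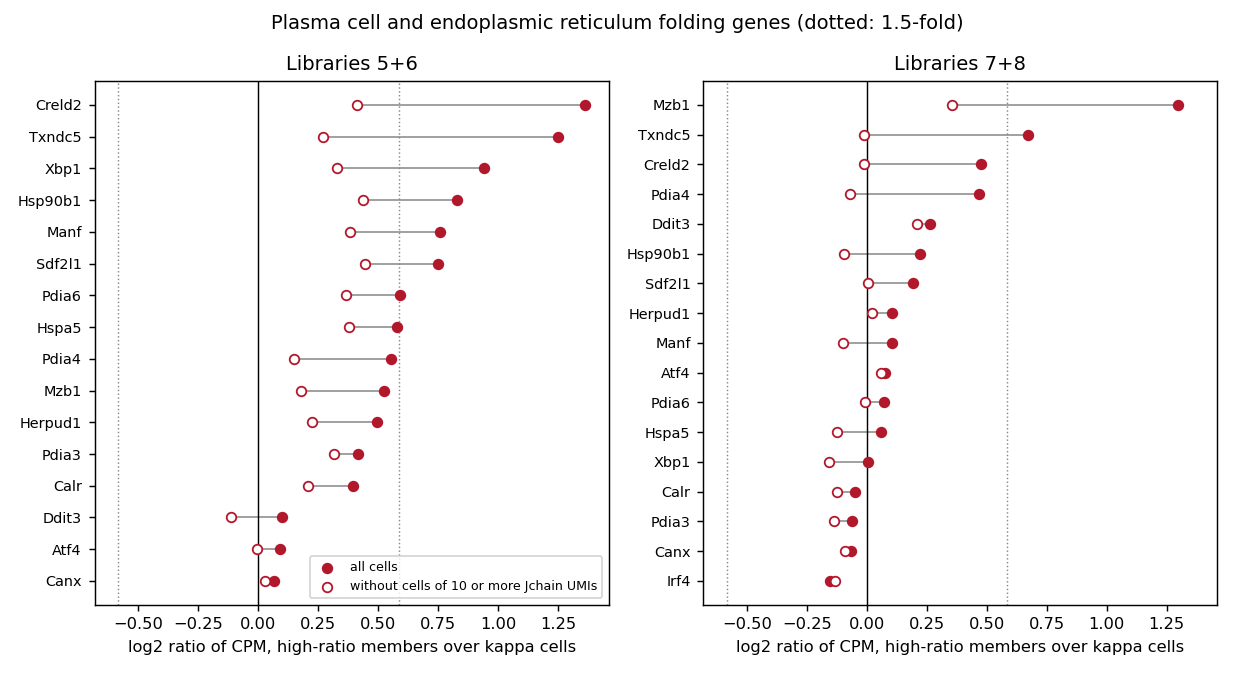
Log2 ratio of CPM, high-ratio members over kappa cells, for plasma cell and endoplasmic reticulum folding genes in each pair, with all cells (filled) and without cells of 10 or more Jchain UMIs (open); dotted lines mark 1.5-fold. Filled points pass 1.5-fold for 7 genes shown in 5+6 and 2 in 7+8, and no open point does.

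The antibody heavy chain genes were measured apart from the count above. Ighm, the mu chain, stood at 5570, 6500, 2802 and 4386 CPM in high-ratio members of libraries 5, 6, 7 and 8, and at 3645, 4089, 2746 and 1924 CPM in kappa cells. Its log2 ratio was 0.65 in 5+6 and 0.53 in 7+8, but 0.03 in library 7 and 1.19 in library 8. With Jchain-rich cells left out of both classes, Ighm stood at 3822 against 3414 CPM in 5+6 (log2 ratio 0.16) and at 1631 against 1402 CPM in 7+8 (0.22). Over all members its ratios were 0.07 and -0.04. Ighd, the delta chain of resting B cells, had log2 ratios of -0.29 in 5+6 and -0.11 in 7+8 for high-ratio members, and the second interval (-0.38 to 0.16) spans 0. Over all members Ighd had ratios of 0.09 and 0.34 instead. Ighg2b, a gamma chain, had log2 ratios of -0.05 in both pairs, with intervals that span 0. Ighg2c stood at 24.5 CPM in kappa cells of library 5 and at 0.339 CPM in its members. In the other libraries it stayed under 3 CPM in both classes.

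Genes with the same direction in all 4 libraries numbered 772 of the 3891 compared in both pairs. The 10 highest in members by mean log2 ratio were Mzb1, Dcaf12, Rgcc, AW112010, Smco4, Zfpm1, Fam53b, Vpreb3, Rhoh and Lmo4, from 0.43 down to 0.26. Vpreb3, a B lineage protein related to the surrogate light chain, stood at 210, 196, 28.9 and 34.4 CPM in members of libraries 5, 6, 7 and 8, against 195, 188, 22.1 and 23.1 CPM in kappa cells. Dcaf12, a subunit adaptor of a ubiquitin ligase, stood at 24.6, 24.5, 23.9 and 26.7 CPM against 20.2, 19.1, 19.7 and 19.2 CPM. Members were above kappa cells in each library for both genes, by less than 1.5-fold in each pair.

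The 10 lowest genes in members were Rrm2, Pclaf, Ipo5, Hells, Lig1, Pcna, Mcm3, Satb1, Chd7 and Cdk1, from -0.41 to -0.24, and most of them serve DNA replication or the cell cycle. Rrm2, a subunit of ribonucleotide reductase, stood at 23.0, 39.9, 37.6 and 23.4 CPM in members against 41.7, 44.9, 39.6 and 45.7 CPM in kappa cells. Pclaf, a PCNA-binding factor, stood at 62.5, 105, 87.3 and 58.1 CPM against 103, 109, 93.1 and 108 CPM. For both genes the gap was wide in libraries 5 and 8 and narrow in libraries 6 and 7. Of the proliferation list, 0 of 7 genes passed 1.5-fold over all members in either pair. Of these genes, 0 of 7 in 5+6 and 2 of 7 in 7+8 lay above 0, with medians of -0.23 and -0.13. By library the medians were -0.49, -0.03, -0.03 and -0.27 in libraries 5, 6, 7 and 8. In high-ratio members the medians were -0.12 and 0.02, and in low-ratio members -0.47 and -0.47. For low-ratio members, 1 of 7 genes was lower in 5+6 and 2 of 7 in 7+8, beside 0.269% and 1.24% of all genes compared. The low-ratio medians rested unequally on the libraries, at -1.22, -0.13, -0.55 and -0.19 in libraries 5, 6, 7 and 8. Low-ratio members thus had lower proliferation medians than high-ratio members, and they were also the cells whose light chain identity was least clear. With cells thinned to 5000 UMIs and assigned anew, the medians over members were -0.06 and -0.26.

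The 10 highest genes in high-ratio members were Jchain, Txndc5, Creld2, Apoe, Mzb1, Rgcc, Edem1, Hsp90b1, Pdia4 and Sdf2l1. The 10 lowest were Ccl3, Gbp3, Chd7, Ipo5, Lacc1, Eif4enif1, Aida, Sptan1, Zfp318 and Thap11. Apoe, a lipid carrier, stood at 36.2, 81.8, 40.1 and 98.5 CPM against 33.9, 28.8, 38.1 and 31.7 CPM, so libraries 6 and 8 held nearly all of the gap. Rgcc, a cell cycle regulator, had log2 ratios of 0.97 in 5+6 and 0.38 in 7+8, and was the only higher gene left in 5+6 without Jchain-rich cells. Zfp318, which is needed for surface IgD, stood at 47.2, 49.8, 36.4 and 36.3 CPM against 60.7, 62.8, 47.7 and 46.6 CPM, lower in each library by log2 ratios of -0.36, -0.34, -0.39 and -0.36.

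No gene of the B cell receptor, light chain locus or MHC class II lists passed 1.5-fold over all members, whereas in low-ratio members of 7+8, 2 of 6 MHC class II genes were lower (median -0.50) and 1 of 13 receptor genes was higher (median 0.18), beside 1.24% lower and 0.663% higher over all genes compared in that class. Among the genes of the B cell receptor complex and its proximal signaling, 0 of 15 in 5+6 and 0 of 13 in 7+8 passed 1.5-fold in members, with medians of 0.02 and 0.04. The factors that act at the light chain loci gave 0 of 11 in each pair, with medians of 0.03 and 0.11. MHC class II genes gave 0 of 9 and 0 of 6, with medians of -0.06 and -0.20, and in 7+8 5 of the 6 lay below 0. Of the marginal zone list, 0 of 6 genes were higher in 5+6 and 1 of 4 in 7+8, beside 0.0428% of all genes compared in 7+8. That gene was Mzb1, which is also on the plasma cell list. The follicular list gave 0 of 7 and 0 of 2, with medians of 0.01 and 0.21, and the B-1 cell list 0 of 2 in each pair. Of the surrogate light chain and recombination genes, Rag1, Rag2 and Igll1 had no UMI in members, and only Vpreb3 was abundant enough to compare.

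Of the culture response list, which holds genes that stimulated B cells switch on, 0 of 7 genes in 5+6 and 1 of 11 in 7+8 were lower in members. The medians were -0.04 and -0.21, and over all genes compared 0.0224% and 0.0642% were lower. In low-ratio members of 7+8, 4 of the 11 were lower and 2 higher (median -0.22), beside 1.24% and 0.663% of all genes compared. In those of 5+6, 1 of 7 was higher, beside 0.0224% of all genes compared. The lower gene over all members was Ccl4, a chemokine made by activated B cells. Ccl4 stood at 122, 31.6, 222 and 165 CPM in members of libraries 5, 6, 7 and 8, and at 63.1, 67.0, 374 and 352 CPM in kappa cells. Members were lower in libraries 6, 7 and 8 and higher in library 5, where the 5 highest cells held 95.3% of the UMIs. Ccl3, its neighbour in function, was lower in high-ratio members of both pairs, by log2 ratios of -1.14 and -0.58, but in library 8 the ratio was -0.04. Serpinb9, an inhibitor of granzyme B, stood at 27.5 and 19.4 CPM in members of libraries 7 and 8 against 41.1 and 47.6 CPM in kappa cells.

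Counted as cells at full depth, members were a smaller share of the cells with at least 10 Ccl4 UMIs in each library. The shares of members were 10.6%, 7.69%, 7.46% and 6.71% of such cells in libraries 5, 6, 7 and 8, against 15.2%, 16.8%, 11.5% and 12.01% of the other assigned cells. By pair they were 8 of 86 cells (9.30%, 4.10 to 17.5) against 16.1% in 5+6, and 28 of 392 (7.14%, 4.799 to 10.2) against 11.7% (10.8 to 12.7) in 7+8. The 2 intervals overlap in 5+6 and do not in 7+8. The Ccl4 cells were deeper, with medians of 15350 against 8739 UMIs in 5+6 and 11611 against 10155 UMIs in 7+8, and 233 of 625 Ccl4 cells of 7+8 had no assigned light chain. With each cell thinned to 5000 UMIs and shallower cells left out, the shares were 11.4% (5 of 44, 3.79 to 24.6) against 15.5% in 5+6 and 6.79% (15 of 221, 3.85 to 10.9) against 11.5% (10.7 to 12.5) in 7+8. At equal depth the intervals thus overlap in both pairs, and in library 5 the order turned, at 16.7% (4 of 24) against 14.6%.

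**Figure D5:**
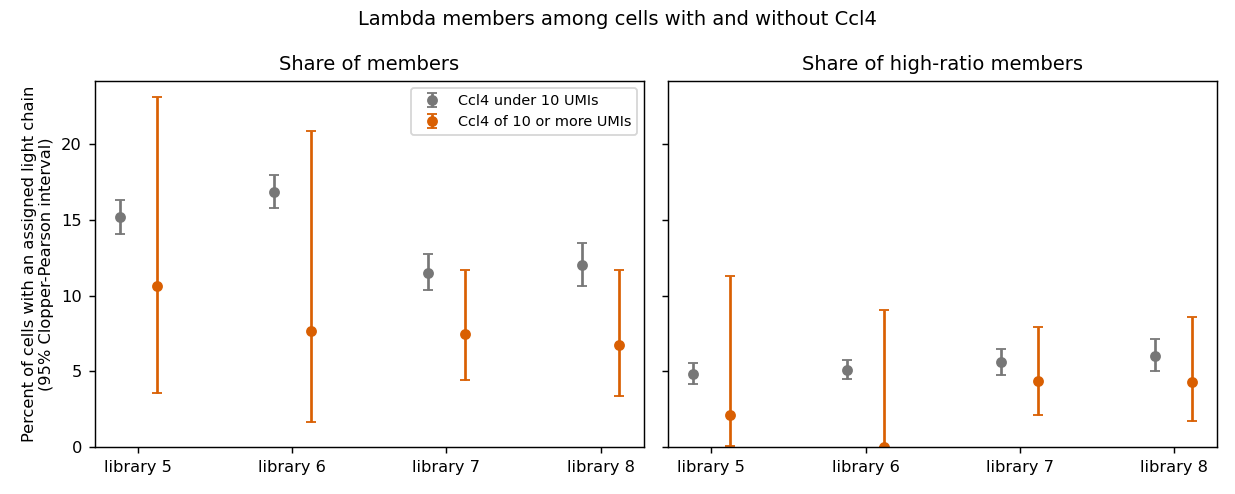
Percent of cells with an assigned light chain that are members (left) or high-ratio members (right) among cells with 10 or more Ccl4 UMIs and the other cells of each library, with 95% Clopper-Pearson intervals. At full depth the member share is lower among Ccl4 cells in all 4 libraries, while the intervals of the high-ratio shares overlap in each library.

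Members were 17.2% of cells with at least 10 Jchain UMIs in 5+6 (10 of 58) against 15.98% of the others, and 10.4% (8 of 77) against 11.4% in 7+8. Median UMIs were 12772.5 in Jchain cells and 8759.5 in the others of 5+6, and 11315 and 10229 in 7+8. Thinned to 5000 UMIs, the shares were 19.6% (9 of 46, 9.36 to 33.9) against 15.5% in 5+6 and 13.3% (8 of 60, 5.94 to 24.6) against 11.3% in 7+8, where the order turned, and the intervals overlap in both pairs. All of these members were high-ratio, and high-ratio members were 4.45% of the other cells in 5+6 and 5.54% in 7+8. That gap is not independent of the 10-fold limit, which takes in cells with many lambda UMIs. Among cells with at least 3 UMIs of Mki67, a marker of cycling cells, members were 13.5% against 16.2% in 5+6 and 10.0% against 11.5% in 7+8, with overlapping intervals in each pair and Mki67 cells much deeper (medians of 18520 and 8542 UMIs in 5+6, 16869 and 10079 in 7+8). Among cells with at least 3 UMIs of Il10, an anti-inflammatory cytokine of some regulatory B cells, members were 16.1% against 15.99% in 5+6 and 11.2% against 11.5% in 7+8. The intervals of both pairs overlap. Median UMIs were 13350.5 with and 8732.5 without Il10 in 5+6, and 11167 and 9618 in 7+8. Thinned to 5000 UMIs, the shares were 32.0% (8 of 25, 14.9 to 53.5) against 15.4% (14.7 to 16.2) in 5+6 and 11.4% (111 of 974) against 11.3% in 7+8. The intervals overlap in both pairs, and that of 5+6 rests on 6 of 16 cells in library 5 and 2 of 9 in library 6. For Mki67 the thinned shares were 14.0% against 15.5% in 5+6 and 8.94% against 11.4% in 7+8, also with overlapping intervals.

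Genes next to the lambda locus were compared because they lie by the rearranged region. The locus spans chr16:19061618-19260859 in GRCm38, and 38 other genes lie within 500 kb, of which 25 are in the matrix. Ufd1, a protein of the ubiquitin pathway, stood at 35.8 CPM in high-ratio members and 34.3 CPM in kappa cells of 5+6, and at 52.7 and 50.8 CPM in 7+8. Mrpl40, a mitochondrial ribosome protein, stood at 44.7 and 44.6 CPM, and at 72.1 and 76.5 CPM. The log2 ratios of 2510002D24Rik were 0.04 and 0.06, and that of B3gnt5, a glycosyltransferase, was -0.02 in 5+6. All of these intervals span 0. The antisense transcript 2010309G21Rik, which overlaps Iglc1, Iglc3 and Iglv1, stood at 3.33 CPM in high-ratio members and 8.77 CPM in kappa cells of 5+6 (log2 ratio -1.40, -2.36 to -0.58), and had 1 UMI in high-ratio members of 7+8.

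At the kappa locus, Gm30211 (chr6:70719074-70740554, plus strand) contains Igkc (chr6:70726435-70726966) on the same strand. It stood at 13.5 and 16.2 CPM in high-ratio members of libraries 5 and 6 and at 89.98 and 91.0 CPM in kappa cells, with log2 ratios of -2.74 and -2.49. Members as a whole stood between, at 47.9 and 56.1 CPM. In libraries 7 and 8 the high-ratio members held 2 and 3 UMIs of it, and kappa cells 7.90 and 5.73 CPM. Since the gene overlaps Igkc, how far its UMIs are separate from those of Igkc cannot be told from the matrix, and the difference is not independent of the rule.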

How the data were processed

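The authors deposited UMI counts of 31053 genes in 1 matrix, made with Cell Ranger 3.1.0 on mm10 (Ensembl annotation) from 10x Chromium 3′ v3 libraries then combined and normalised with Cell Ranger aggr, per the study's methods and the submitters' processing notes. The normalisation mode is not given in the sources used here. The last 19920 of 35989 columns were read in the order of the deposited barcodes, and the 16069 earlier columns were not used. Counts were summed over cells of a class and divided by all their UMIs (CPM). Intervals are exact Poisson for CPM, Clopper-Pearson for shares and exact conditional for log2 ratios. Members and the 16 gene lists were chosen with earlier results of these data known. Besides list genes, named genes were the 10 highest and 10 lowest by mean log2 ratio of the pairs, among genes of at least 20 CPM in both pairs with 1 direction in all 4 libraries, and genes near the lambda locus. Genes counted as different were named as well, chosen after their values were seen. Alternatives changed the light chain minimum and margin, cell filters, depth, scaling and gene minimum. Positions are from GENCODE release M21 (GRCm38). Python 3.11.15, SciPy 1.17.1 and Biopython 1.88 were used, and the scripts were tested on simulated data.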

Additional observations from a re-analysis of the deposited data

Results flagged for a closer look

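Both libraries of 5+6 lay on one side of 0 and both of 7+8 on the other for 12 of 102 list or named genes compared over all members (11.8%) and for 6 over high-ratio members (5.94%). Over all genes compared in both pairs the shares were 14.4% and 12.6%. For 6 and 4 of these, the counting intervals of both pairs also lay off 0. These differences were not tested, and the libraries could not be counted as replicates of a labelled sample. Over all members, log2 ratios were 0.16 in 5+6 and -0.08 in 7+8 for Hsp90b1 (difference 0.24), 0.17 and -0.17 for Manf (0.34), 0.09 and -0.12 for Pdia3 (0.21) and 0.10 and -0.14 for Pdia6 (0.25). The B lineage factor Pax5 had -0.06 and 0.31 (-0.37), and Ly6d, a surface protein of B lineage cells, -0.04 and 0.43 (-0.47). In high-ratio members, the tetraspanin Cd81 had 0.28 and -0.17 (0.44). The chemokine receptor Ccr7 had -0.19 and 0.56 (-0.75), the transcription factor Irf8 -0.10 and 0.19 (-0.29), and Ly6k -0.33 and 0.65 (-0.98). All of these ratios but those of Ly6k in 7+8 were under 1.5-fold.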

How the results depend on the processing

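No library can be assigned to a sample, so differences between pairs cannot be told apart from culture, depth or batch, and lambda UMIs in nearly all kappa cells of 5+6 limit what the rule separates there. No paired analysis was possible by the replicate numbers of the labels, because no library can be assigned to one. Lambda and kappa cells are paired within each library, and that pairing is given as a ratio per library with no test run. With 10 times as many UMIs of one chain required, the lambda share went from 15.99% to 75.2% in 5+6 and from 11.4% to 9.49% in 7+8, the share of members led by Iglc1 to 75.2% and 72.6%, the genes past 1.5-fold from 2 to 809 and from 5 to 27, and in 5+6 the median UMIs to 7808 and the lists with a median past 0.1 from 4 to 9, and the plasma cell and folding medians of 5+6 turned to -2.21 and -1.30. With only high-ratio members against all kappa cells, shares were 5.54% and 6.003%, Iglc1-led members 75.2% and 72.6%, genes 21 and 20, the median in 5+6 7808 UMIs and the lists in 7+8 2. A minimum of 5 light chain UMIs gave 12.99%, 42.1% led by Iglc1 and 10037.5 UMIs in 7+8, with 11 genes for high-ratio members in place of 20, and a minimum of 20 gave 71.8%, 11252.5 UMIs and 8 genes. Thinning to 5000 UMIs gave 71.4% led by Iglc1 and 43 genes in 7+8 and 0 lists in 5+6, with 32 and 95 genes for high-ratio members. A mitochondrial limit of 20% left 2 lists in 5+6. A minimum of 50 CPM gave 0 lists in 5+6 and 2 genes in 7+8, and no minimum gave 1022 and 1082 genes. Without cells of 10 or more Jchain UMIs, 5+6 had 1 list, and 7 genes for high-ratio members in place of 21. Leaving out each library in turn gave lambda shares of 15.1% to 16.8%, medians of 7953 to 8315.5 UMIs, 3 to 16 genes and 2 to 3 lists in 5+6, and medians of 10021.5 to 10678 UMIs and 6 to 29 genes in 7+8, the highest gene counts without library 6 and without library 7. The cause of these changes was not tested. The other 72 main values stayed within the limits set for them, as did 157 of 225 for single lists or added checks. Shares and median UMIs were judged by their intervals and list medians by the span of the libraries. Counts of genes or lists were judged by a 1.5-fold limit. The high-ratio, Jchain and thinned-share alternatives were chosen after seeing the data.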

Other observations

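Lambda UMIs were also counted in the 4401 unassigned cells. Those of 5+6 (60 cells) held 4438 CPM of lambda constant UMIs, above the 3630 CPM of kappa cells, and those of 7+8 (4341 cells) held 175 CPM against 407 CPM in kappa cells. Iglv1 was seen in 1 unassigned cell of 5+6 and in 4 of 7+8. The 18 members with at least 10 Jchain UMIs had a median lambda sum of 2302 UMIs.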
